A study of Mus musculus with 2 samples.

Results

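The DEAD-box helicases are enzymes that use ATP to pry apart short RNA duplexes or to remodel RNA and protein complexes, and they are named for a conserved Asp-Glu-Ala-Asp motif. Members of the family act at nearly every step of RNA life, from spliceosome assembly and export of mRNA to ribosome assembly in the nucleolus, tRNA ligation and the start of translation. Germ cells depend on several of them. Described here are 10 DEAD-box genes that carry peaks of BUD31, a protein of the activated spliceosome, in mouse germ cells. They were chosen by their presence in the authors' list of BUD31 peaks, so having a peak is what defines them and is not a finding. The 10 genes carry 23 peaks, of 16331 peaks and 3258 named genes in all. Of 14867 coding genes on the chromosomes with peaks, 18.8% were named by a peak.

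The samples were testicular germ cells of C57BL/6J mice at postnatal day 14, when the first wave of germ cells has entered meiotic prophase. RNA immunoprecipitation sequencing (RIP-seq) was done with an antibody to BUD31, in 1 library. Beside it stood 1 library of input RNA, which used 10% of the total. Both came from testis tissue digested to single cells, and the labels name no further purification. The authors' list gives each peak a position on the mm10 assembly, a gene, a transcript and 1 annotation class, with no read count, fold, score or strand. Depth is therefore unknown, there is no replicate check and no test is given. Peak edges fall on a fixed grid of 200 bp on most chromosomes, 205 bp on chromosomes 1 and 12 and 230 bp on the X chromosome, called a bin below. Covered share means the part of a gene's extent that its own peaks overlap. How abundant each RNA was in the cells is not known from the list, and its part in the covered shares was not tested. Among markers of the sample, 6 of 8 germ cell genes on chromosomes with peaks had one. Their covered shares were 63.0% in Tex11, 61.7% in Scml2, 53.2% in Boll, 30.2% in Rhox13, 28.3% in Mael and 7.33% in Sycp3. Tex11, Scml2 and Rhox13 lie on the X chromosome, where 48.6% of coding genes were named by a peak. Dazl and Sohlh1 had none, but lie on chromosomes 17 and 2, where 3.02% and 5.78% of coding genes were named by a peak. Of 17 somatic and blood cell markers 4 had a peak, namely Alas2 (93.1% covered), Kitl (10.1%), Myh11 (2.66%) and Wt1 (0.425%). The share over all coding genes was 18.8%. On chromosomes with a peak in at least 10% of coding genes, 6 of 6 germ cell markers had one. There 3 of 10 somatic and blood cell markers had one, beside 35.7% of all coding genes.

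Across the 10 genes the covered share ran from 3.63% to 83.5%, with a median of 18.1%. The median over all 2799 coding genes with a peak was 14.0% (interquartile range 4.07% to 40.3%). Over the 1105 of these with a length in the range of the 10 members it was 16.5%. Over all 13 DEAD-box genes with a peak, which include Ddx19a, Ddx19b and Ddx3y, it was 10.7%. The 2799 coding genes include some whose named peaks cover none of the gene, which can only lower their median. All 10 members have peaks inside the gene. Ddx3x and Ddx1 stood apart at 83.5% and 80.4%, while the other 8 genes lay at 33.3% or below. Together these 2 genes held 61.0% of the 57874 bp covered in all 10. The 10 genes are spread over 7 chromosomes and are short beside other genes with peaks, with a median extent of 17.35 kb against 37.14 kb over all coding genes with a peak.

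**Figure D1:**
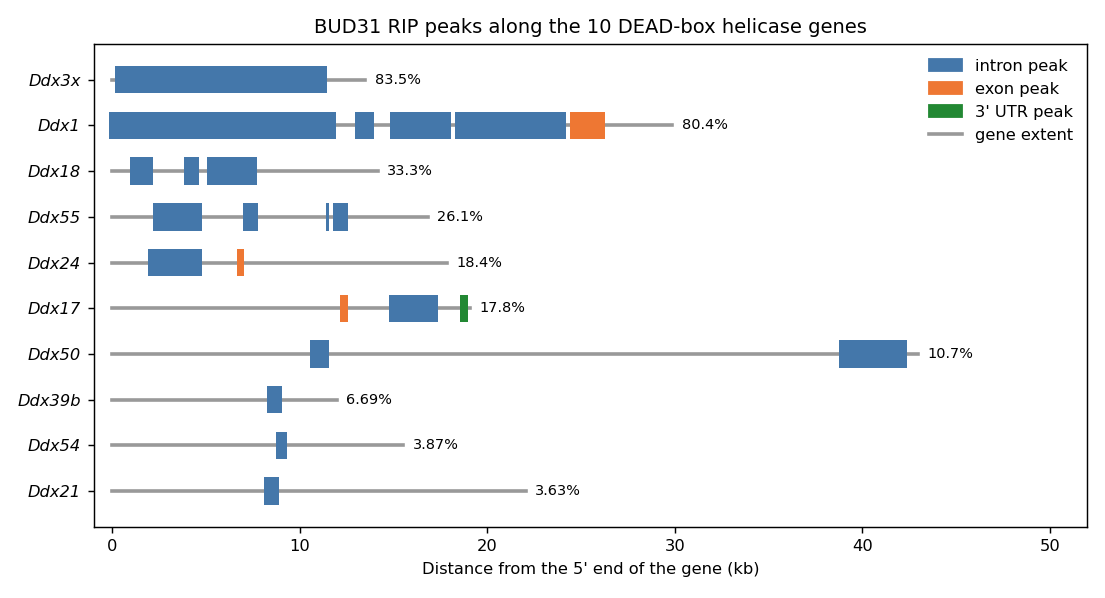
Peaks along each of the 10 genes, drawn in kb from the 5′ end of the gene's extent. Grey lines are gene extents, boxes are peaks coloured by the authors' class, and the percentage is the covered share. Ddx3x and Ddx1 are covered over most of their length, at 83.5% and 80.4%, and the other 8 genes carry separate peaks of at most 3600 bp.

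Ddx3x encodes an X-linked helicase that helps ribosomes scan structured 5′ leaders of mRNA. Its single peak, at chrX:13280661-13291930, is 11270 bp wide and annotated as intron. The gene runs from 13280496 to 13293988, so the peak begins 165 bp inside its 5′ end and leaves 2058 bp free at the 3′ end. The class is 1 label for the whole peak, so a peak of this width on a gene of 13.49 kb may take in exons too. Of 3404 peaks on the X chromosome, 5.29% were at least as wide. No peak of another gene lay within 10 kb on either side.

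Ddx1 encodes a helicase of the tRNA ligase complex, which seals tRNAs after their introns are cut out. Its 5 peaks formed a nearly closed run on chromosome 12, and 4 were annotated as intron and 1 as exon. From the 5′ end the widths were 12095 bp, 1025 bp, 3280 bp, 5945 bp and 1845 bp. The gaps between them were short, from the 5′ end 5, 4, 1 and 1 bins. The exon peak was the one nearest the 3′ end, and the last 3604 bp of the gene held none. When peaks separated by 1 bin were merged, a choice made after seeing the data, Ddx1 had 3 peaks. The widest, chr12:13237261-13249355, reached 181 bp beyond the gene's 5′ end at 13249174. On chromosome 12, 4.06% of 2218 peaks were at least as wide. No other gene's peak lay within 10 kb.

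Ddx3x and Ddx1 were the members in which a peak lay over an annotated start site, whereas the other 8 had none there. Over all coding genes with a peak and a start site in the RefSeq promoter table, 290 of 2229 (13%) had a start site under a peak. The promoter sequences of both are shown because the peaks run across a start site of the promoter table. They are RefSeq sequences of the GRCm38.p6 build, which is mm10, read 5′ to 3′ on the gene's own strand. The 250 bases before the table's start site are in lower case and the 30 bases from it in capitals. The Ddx3x stretch is chrX:13280772-13281051 on the plus strand and the Ddx1 stretch is chr12:13249145-13249424 on the minus strand.
Ddx3x: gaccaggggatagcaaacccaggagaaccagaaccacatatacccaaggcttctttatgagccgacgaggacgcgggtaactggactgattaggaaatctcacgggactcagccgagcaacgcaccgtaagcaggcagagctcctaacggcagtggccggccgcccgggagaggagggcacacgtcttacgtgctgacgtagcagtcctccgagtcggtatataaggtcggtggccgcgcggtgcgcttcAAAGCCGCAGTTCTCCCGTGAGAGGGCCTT
Ddx1: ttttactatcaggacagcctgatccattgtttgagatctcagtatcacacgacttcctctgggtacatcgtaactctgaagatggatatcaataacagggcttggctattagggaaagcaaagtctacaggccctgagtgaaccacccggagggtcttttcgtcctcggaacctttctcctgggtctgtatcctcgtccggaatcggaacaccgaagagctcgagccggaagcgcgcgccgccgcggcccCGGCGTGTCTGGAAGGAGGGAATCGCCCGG
For Ddx3x the peak covered all 300 bp of the table's window, which extends 50 bases past the start, and its left edge lay upstream of the window. The RefSeq gene extent of Ddx3x begins further upstream still, at 13280496, so the capital letters mark the table's start site and not the first base of the extent. For Ddx1 the peak covered 231 bp of the window (77.0%), taking in the start site and the bases just before it. GC content over the windows was 60.0% for Ddx3x and 57.0% for Ddx1, beside a median of 53.3% over 21757 windows. They held 25 and 24 CpG dinucleotides, beside a median of 8. The 10 windows of other members, which no peak touched, held 7 to 32, the fewest in 1 of the Ddx50 windows and the most in Ddx55. Their GC content ran from 38.3% in that Ddx50 window to 67.7% in Ddx54 and the other Ddx50 window, and most exceeded Ddx3x.

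The genes of mRNA splicing and export, Ddx39b and Ddx17, carried 4 peaks, of which 2 were annotated as intron, 1 as exon and 1 as 3′ UTR. Ddx39b encodes UAP56, a helicase that acts in early spliceosome assembly and then hands mRNA to the export machinery. It had 1 intron peak of 800 bp, chr17:35250001-35250800, which covered 6.69% of the gene and lay 69.0% to 75.7% of the way along it. The 4 small RNA genes inside Ddx39b, the miRNA genes Mir6975 and Mir8094 and a pair of snoRNA genes, all lay outside the peak. The closest was Mir8094, 489 bp away.

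Ddx17 encodes a regulator of alternative splicing that also works with the microprocessor complex of miRNA biogenesis. Its 3 peaks covered 17.8% of the gene, and all of them lay in the 3′ part. From the 5′ side they were an exon peak of 400 bp, an intron peak of 2600 bp and a 3′ UTR peak of 400 bp. The exon peak, chr15:79534201-79534600, began 12.16 kb into a gene of 19.07 kb, and the first 63.8% of the gene was free of peaks. That peak was assigned to a predicted noncoding transcript of the gene. The 3′ UTR peak, chr15:79527801-79528200, was the one 3′ UTR peak among the 23. It stopped just short of the end of the gene, and Kdelr3, which overlaps that end, came within 62 bp of it without being overlapped.

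Ddx17 and Ddx39b lie on chromosomes where peaks were rare, with 3.87% of coding genes named by a peak on chromosome 15 and 3.02% on chromosome 17. Among those genes their covered shares were above the median. Ddx17 took place 8 of 30 genes with a peak on chromosome 15, where the median was 7.79%, and Ddx39b took place 11 of 32 on chromosome 17, where it was 5.04%.

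The 6 genes of ribosome assembly, Ddx18, Ddx55, Ddx24, Ddx50, Ddx54 and Ddx21, carried 13 peaks, 12 of them annotated as intron and 1 as exon. Their covered shares ran from 3.63% to 33.3% with a median of 14.6%, and their peaks from 200 bp to 3600 bp with a median of 820 bp. None reached the shares of Ddx3x and Ddx1.

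Ddx18, whose yeast counterpart Has1 works on both ribosomal subunits, led this group at 33.3%. Its 3 intron peaks lay towards the 5′ end, with widths from that end of 1230 bp, 820 bp and 2665 bp. The first began 930 bp into the gene, and the last 6451 bp of its 14.15 kb held none. Of the covered bases 86.8% lay 5′ of the midpoint.

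Ddx55, the counterpart of yeast Spb4 in large subunit assembly, had the most peaks of the group, with 4 intron peaks over 26.1% of 16.83 kb. From the 5′ end they measured 2600 bp, 800 bp, 200 bp and 800 bp. The 200 bp peak is 1 bin wide and is the narrowest of the 23, and 1 bin separates it from the next. The second peak was assigned to a predicted noncoding transcript.

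Ddx24, the counterpart of yeast Mak5, had an intron peak of 2870 bp and an exon peak of 410 bp, which together covered 18.4% of the gene. Both lay 5′ of the midpoint, between 1.91 and 7.04 kb from the 5′ end, and the remaining 10835 bp held none.

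Ddx50 and Ddx21 encode paired nucleolar helicases, and their genes lie next to each other on chromosome 10, separated by 13493 bp. Ddx21, which is known for its part in rRNA transcription and processing, had 1 intron peak of 800 bp, chr10:62593401-62594200, over 3.63% of the gene, assigned to a predicted noncoding transcript. Ddx50 had intron peaks of 1000 bp and 3600 bp, the first 10.56 kb and the second 38.76 kb from the 5′ end of an extent of 42.97 kb, and 10.7% was covered. The start sites of Ddx50 in the promoter table lie inside that extent, at 62651218 and 62649753, and both are 5′ of its peaks. Another peak overlaps the 5′ end of the Ddx50 extent but was assigned by the authors to the neighbour Stox1, as downstream, and was not counted. No peak lay between the Ddx50 3′ end and Ddx21.

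Ddx54, the counterpart of yeast Dbp10, had 1 intron peak of 600 bp, chr5:120621801-120622400, over 3.87% of its 15.51 kb. It lay near the middle, 56.2% to 60.1% of the way along. The difference in covered share between Ddx54 and Ddx21 is smaller than 1 bin, which is 1.29% of Ddx54, so their order cannot be read. The same holds for Ddx24 and Ddx17, at 18.4% and 17.8%, where 1 bin is 1.15% and 1.05% of the gene.

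**Figure D2:**
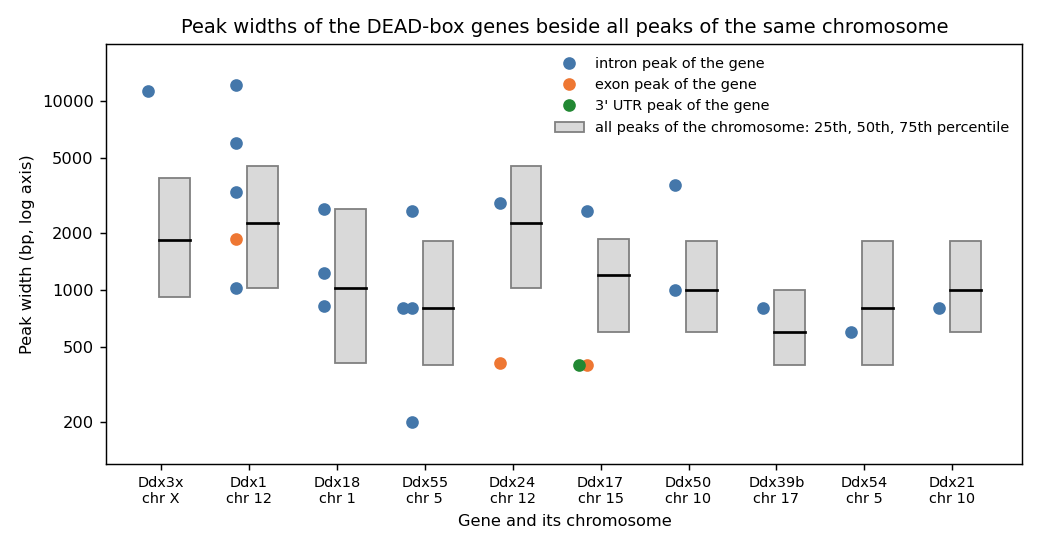
Width of every peak of the 10 genes in bp on a log axis, with genes in order of covered share and points coloured by class. Grey boxes give the 25th, 50th and 75th percentiles of all peaks on the same chromosome. The Ddx3x peak, the 2 widest Ddx1 peaks and the widest peaks of Ddx55, Ddx17 and Ddx50 lie above the 75th percentile of their chromosomes, and 3 of the 4 exon and 3′ UTR peaks are 400 or 410 bp wide.

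By class, 19 of the 23 peaks were annotated as intron (82.6%, Wilson 95% interval 62.9% to 93.0%), 3 as exon and 1 as 3′ UTR. The interval takes the peaks as independent, although 6 of the 10 genes hold 2 or more, so it is likely too narrow. Over all peaks in the list the intron share was 81.8%, exons held 5.0% and 3′ UTRs 4.79%. Those shares count peaks outside genes too, whereas all 23 were classed inside a gene, so the intron shares are not like for like. A share over peaks classed inside genes alone would be higher than 81.8%. None of the 23 peaks was intergenic, downstream or upstream, classes that held 1098 (6.72%), 138 (0.845%) and 32 (0.196%) of all peaks. None was annotated as 5′ UTR, a class with 0.643% of all peaks. With 23 peaks nothing is read from these absences. By length the intron class was larger, with 94.7% of the peak bases of the 10 genes, and 3 of the 4 exon and 3′ UTR peaks were 400 or 410 bp wide. With only peaks at or above the median width of their chromosome kept, 14 peaks were left and all were annotated as intron. Predicted noncoding transcripts were named by 3 peaks, those of Ddx17, Ddx21 and Ddx55, and by 8.46% of all peaks. All 23 peaks overlapped no other gene in the reference table, and in 9 of the 10 genes no other gene's peak lay within 10 kb. The matching shares over all peaks and all coding genes with a peak are not given, so nothing is read from these counts. The median peak width was 1025 bp, beside 1400 bp over all peaks. Without Ddx3x and Ddx1 it was 800 bp, over 17 peaks.

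Position along the gene differed between members. More than 50% of the covered bases lay 5′ of the midpoint in 6 genes (Ddx24, Ddx21, Ddx18, Ddx55, Ddx3x and Ddx1) and 3′ of it in the other 4. In Ddx24 and Ddx21 all covered bases were 5′ of the midpoint, and in Ddx17, Ddx39b and Ddx54 none were. Over 2134 coding genes with a known strand 48.3% had more than 50% of their covered bases 5′ of the midpoint.

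Chromosomes differ in how many genes have peaks and how far they are covered, so each gene was also set beside coding genes with a peak on its own chromosome. At least on chromosomes 5 and X, those genes include some whose named peaks cover none of the gene. Such genes can only lower the medians and raise the places of the members. The share of coding genes named by a peak was 39.9% on chromosome 1, which holds Ddx18, 39.2% on chromosome 5, which holds Ddx54 and Ddx55, and 30.4% on chromosome 10, which holds Ddx21 and Ddx50. It was 44.2% on chromosome 12, which holds Ddx1 and Ddx24, and 48.6% on the X chromosome, which holds Ddx3x. In covered share 7 of the 10 genes lay above the median of their chromosome and 3 below it. Ddx1 exceeded 95.3% of the 300 genes with a peak on chromosome 12 and Ddx3x exceeded 89.8% of 469 on the X chromosome. Ddx55 exceeded 83.5% of 497 on chromosome 5, where the median was 10.1%, and Ddx50 exceeded 69.7% of 304 on chromosome 10, where it was 5.51%. Ddx18, at 33.3%, was close to the chromosome 1 median of 30.6%. Ddx24, on the same chromosome as Ddx1, lay below the median of 32%, and Ddx54 and Ddx21 lay below theirs.

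**Figure D3:**
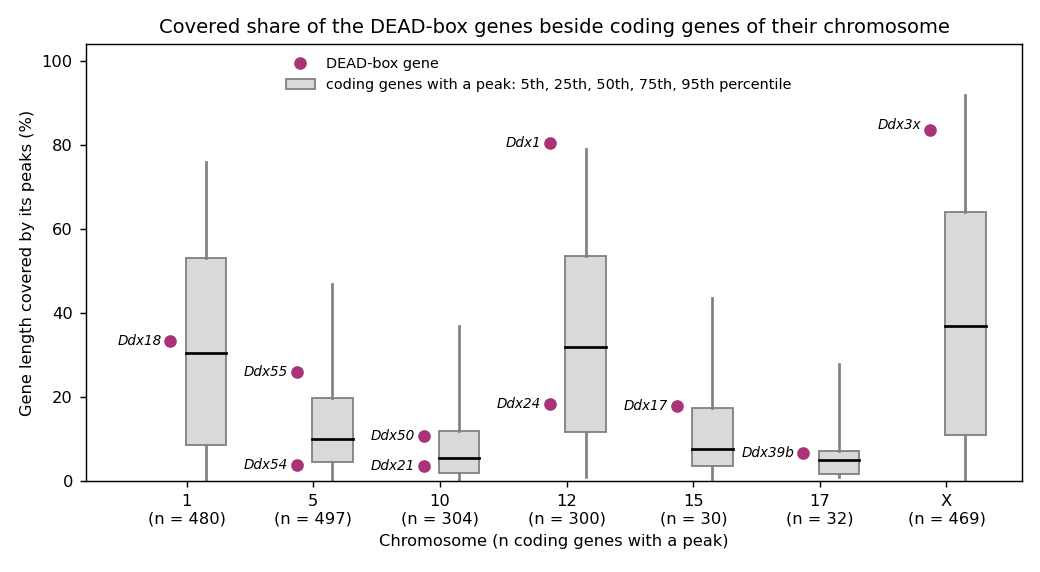
Covered share in percent of each DEAD-box gene (points) beside all coding genes with a peak on the same chromosome (boxes from the 25th to the 75th percentile with the median as a line, whiskers at the 5th and 95th percentiles). Ddx1 lies above the 95th percentile of chromosome 12, and Ddx24 on the same chromosome lies below its median. On chromosomes 5 and X at least, the coding genes include some whose named peaks cover none of the gene.

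The list holds only part of a longer numbered set, and running numbers rise with position on each of the 15 chromosomes. Between the listed peaks of the members 10 numbers are skipped, 4 each in Ddx50 and Ddx55 and 1 each in Ddx18 and Ddx24. The 4 in Ddx50 fall in the 27200 bp gap between its 2 peaks. In Ddx55 the gaps of 2200 bp and 3600 bp skip 1 and 3 numbers. Skipped numbers were counted only between listed peaks of the same gene, so the 4 genes with 1 peak could show none. The stretches outside a gene's outermost peaks were not examined. Covered shares of all 10 genes are thus those of the listed peaks only. No number is skipped between the peaks of Ddx1 or Ddx17.

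From 39 names written down for the DEAD-box family, 38 distinct genes were found in the reference table. Of these, 29 lie on chromosomes with peaks and 9 on chromosomes without any listed peak, which are not analysed here. Of the 29, 13 had a peak (44.8%, Wilson 95% interval 28.4% to 62.5%), the 10 above and 3 more, Ddx19a, Ddx19b and Ddx3y. On chromosomes with a peak in no fewer than 10% of coding genes, it was 10 of 17 DEAD-box genes (58.8%), beside 35.7% of all 7352 coding genes there and 40.5% of the 2555 with a length in the range of the 10 members. On the thinly covered chromosomes it was 3 of 12, beside 2.28% of 7515. The family was described with its peaks known, so these shares carry no test and nothing is read from their difference.

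Ddx3y, the Y-linked counterpart of Ddx3x, differed from it in both class and extent. Its peak was 1980 bp wide and classed as 3′ UTR, at chrY:1261041-1263020, over 7.64% of its 25.91 kb, whereas the Ddx3x peak of 11270 bp covered 83.5%. The chromosomes differ too, with 5 of 256 coding genes (1.95%) named by a peak on the Y chromosome and 48.6% on the X chromosome. Among genes with a peak the median covered share was 7.64% on the Y chromosome, the value of Ddx3y itself, and 36.9% on the X chromosome. D1Pas1, a testis-expressed retrogene of the same group on chromosome 1, had no peak over its 3.21 kb. These 3 genes are closely related and reads may be shared among them, which was not tested. Ddx19a and Ddx19b, adjacent genes for closely related helicases of mRNA export at the nuclear pore, had 1 intron peak each. These were 800 bp wide in Ddx19a and 1600 bp in Ddx19b, over 3.5% and 5.6% of the gene, with the same limit. A gene written as Ddx26b in the list had 6 intron peaks. Its gene number belongs to Ints6l in the reference table, a relative of an Integrator subunit, and it was not counted in the family.

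DEAD-box genes without a peak on the better covered chromosomes were Ddx59, D1Pas1, Ddx51, Ddx49, Ddx39a, Ddx28 and Eif4a2. Ddx39a is the close paralog of Ddx39b, and Eif4a2 encodes a translation initiation helicase. Another 9 without a peak lie on thinly covered chromosomes, among them Ddx5, the paralog of Ddx17, and Eif4a3 of the exon junction complex, both on chromosome 11. The genes with a peak had a median extent of 19.07 kb and those without one 11.7 kb.

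**Figure D4:**
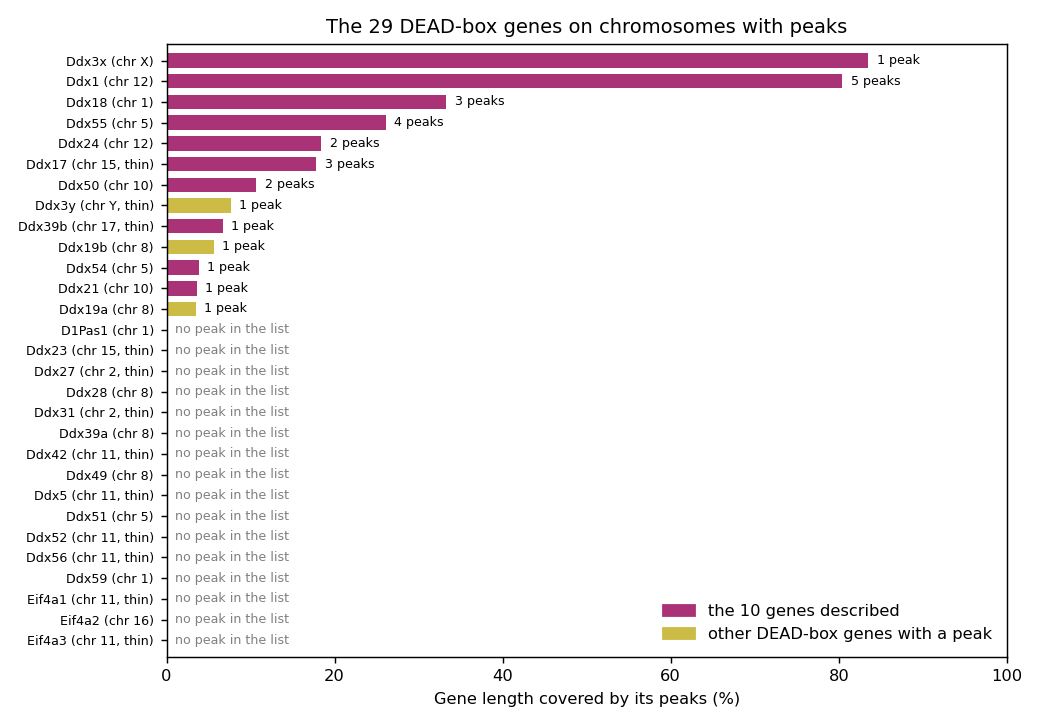
Covered share in percent of the 29 DEAD-box genes on chromosomes with peaks, with the number of peaks beside each bar and thinly covered chromosomes marked as thin. The 10 genes described run from 3.63% to 83.5%, Ddx3y, Ddx19b and Ddx19a from 3.5% to 7.64%, and 16 genes have no peak in the list.

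RNA helicases of other families had a peak in 9 of 24 genes, 8 of them among 10 on the better covered chromosomes, beside 18.8% of all coding genes and 35.7% of those on the better covered chromosomes. They had a median covered share of 16.4% among genes with a peak. The highest were Ythdc2, a helicase needed for meiotic progression (63.9%), Dhx9 (53.9%), and Mov10l1 (32.4%) and Tdrd9 (25.7%), helicases of the piRNA pathway.

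Partners of the helicases were also described by role, counting genes on chromosomes with peaks, and the same background of 18.8% in all and 35.7% on the better covered chromosomes applies. Ribosome assembly genes had a peak in 11 of 26, led by Utp3 (79.2% covered), Nol10 (63.9%), Wdr12 (58.9%) and Utp14a (54.3%). All 11 lie on the better covered chromosomes, where 13 of the 26 are. Of 10 genes of the TREX export complex, to which Ddx39b belongs, and its adaptors, 4 had a peak: Thoc2 (82.9%), Thoc1 (75.8%), Zc3h11a (36.0%) and Sarnp (1.43%). For the tRNA ligase complex of Ddx1 the catalytic subunit Rtcb had 2 intron peaks over 21.9% of the gene, and Fam98a, Fam98b and Zbtb8os, on thinly covered chromosomes, had none. Drosha and Dgcr8, the microprocessor proteins that work with Ddx17, had none. Drosha lies on the thinly covered chromosome 15 and Dgcr8 on chromosome 16, where 34.0% of coding genes were named by a peak.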

How the data were processed

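The data are 1 BUD31 RIP-seq library and 1 input library of mouse germ cells, grouped by sample title. The submitters' processing notes name TopHat2 2.0.13 and the mm10 build. How peaks were called, with which threshold and annotation, and how the input was used is not given in the sources used here. What the authors deposited are peak positions in bp with a class, a transcript and a gene per peak.

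Gene numbers were matched to the RefSeq gene table of GRCm38.p6, which gave extents, and strand and start sites came from its promoter table. All 10 members matched. A peak belongs to the gene the authors name, and covered share is the union of its peaks within the gene's extent, checked on simulated intervals. Named are the members, other DEAD-box genes with a peak, those without one on better covered chromosomes, and up to 4 genes per other list by covered share. Genes named beyond this rule were chosen after their values were seen. The members and lists were chosen with earlier results of these data known. Shares have Wilson 95% intervals, for counting error only. With 1 library per group no test was possible. Python 3.11.15, numpy 2.4.6, pandas 2.3.3, scipy 1.17.1 and matplotlib 3.10.9 were used. Alternatives changed the width minimum, the classes counted, the overlap rule, the merging of peaks and the chromosomes kept. A gene of the list of other RNA helicases is not reported here and was left out of its counts.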

Additional observations from a re-analysis of the deposited data

How the results depend on the processing

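With peaks at or above the median width of their chromosome, 14 peaks remained for the 10 genes in place of 23, and 100% of them were annotated as intron in place of 82.6%. By covered bases the intron share was 94.7%. The median covered share was 14.8% with wide peaks and 18.1% under the other alternatives. The share of DEAD-box genes with a peak ran from 34.5% with wide peaks to 58.8% on the better covered chromosomes, where 35.7% of all coding genes had one. Both values lay within the Wilson interval of the reported 44.8%. They are recounts from the same genes, so lying within that wide interval tests nothing. Peaks counted by class inside the gene, or by 50% of their width inside it, stayed at 23. Counted by an overlap of 1 bp there were 24, and with peaks 1 bin apart merged 20. Of 90 alternative values of single genes, 9 moved beyond a set limit, 8 of them with wide peaks. The limit was 1.5 times for numbers of peaks and a Wilson interval over the gene's bins for covered shares. Neighbouring bins of 1 peak are not independent, so that interval is a cut-off only and measures no spread. With wide peaks Ddx21 and Ddx54 had none, and Ddx1 had 3 peaks over 70.8%. The cause was not tested. No paired analysis was possible because each group has 1 library. Positions are limited by the bin and depth is unknown.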
